A study of Mus musculus with 35 samples.

Results

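Microglia sorted from the cerebellum of control mice at postnatal day 8 (P8) were compared with microglia sorted from the forebrain of control mice of the same age. The comparison holds 6 of the 35 libraries of the series, 3 cerebellum libraries (numbered 1, 2 and 3) and 3 forebrain libraries (1 without a number, 1 and 2), chosen by the genotype, tissue and age in the sample labels. All 6 came from Csf1fl/fl mice, which carry loxP-flanked alleles of Csf1. The sample titles call them Csf1wt, and the labels give them no Cre. They served the series as controls for mice in which Nestin-Cre, active in the neural lineage, deletes Csf1 (NesCre Csf1fl/fl). The 6 NesCre libraries at P8 (3 per region) and the 6 libraries of Csf1fl/fl controls at 9 weeks (3 per region) are used below only to ask whether the region difference at P8 was different there. Cells were sorted by FACS with the ImmGen protocol for ultra-low input. The design text calls the libraries of a group biological replicates, and the labels do not give the number of mice behind a library.

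Microglia are the resident macrophages of the brain parenchyma. In the first postnatal weeks a part of them in developing white matter, the corpus callosum and the cerebellar white matter included, takes on an activated state marked by Spp1, Igf1, Gpnmb, Clec7a, Itgax and Lpl, and engulfs newly formed oligodendrocytes while myelin begins to form. Many of the same genes mark microglia around amyloid plaques and in demyelinated tissue, and many serve lysosomal breakdown and the export of lipid. Microglia also still divide at this age.

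Reads were recovered from the deposited tables, and levels are given as CPM, the reads of a gene per 1000000 reads of the genes tested, scaled jointly over the 6 libraries. CPM is not divided by gene length, so levels are compared between libraries and not between genes. The cerebellum libraries held 1200940, 890770 and 833871 reads in table genes. The forebrain libraries held 974866 reads (unnumbered), 912135 (replicate 1) and 1033741 (replicate 2). The 8400 genes in both tables took 99.4% to 99.5% of the reads in the cerebellum libraries and 97.9% to 98.1% of those in the forebrain libraries, and 8374 of them passed the filter on low counts; genes in 1 table only were not tested. Each region was deposited as its own table, so region cannot be told apart from any step that differed between the tables. In sorted bulk samples, a larger share of cells in a given state and more RNA per cell of that state cannot be told apart either.

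The sorted cells carried the transcripts that define microglia in both regions. Csf1r, the receptor for CSF1 and IL-34 on which microglia depend, was at 10951, 11722 and 11425 CPM in cerebellum, against 10036, 10943 and 11559 CPM in forebrain (unnumbered, 1 and 2, the order used throughout). The fractalkine receptor gene Cx3cr1 averaged 4334 ± 218 CPM in cerebellum and 4071 ± 478 CPM in forebrain (SD, n = 3 each). The summed level of the 36 homeostatic microglial genes was 71535 to 79598 CPM in cerebellum and 69822 to 77517 CPM in forebrain, with overlapping ranges. Il34 was not analysed here.

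Few single genes passed the test across all genes, and nearly all of them were higher in cerebellum. With limma on log2 CPM and Benjamini-Hochberg adjustment over 8374 genes, 10 genes were higher in cerebellum (0.119% of the genes tested) and 1 was lower (0.0119%), which together is 0.131%. At an unadjusted p under 0.05 there were 348 genes higher and 287 lower, and the median log2 difference of all genes was -0.01. The 3 libraries of each region did not overlap for 1051 genes (12.6% of those tested). Of these, cerebellum was higher for 550 (6.57%) and lower for 501 (5.98%).

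**Figure D1:**
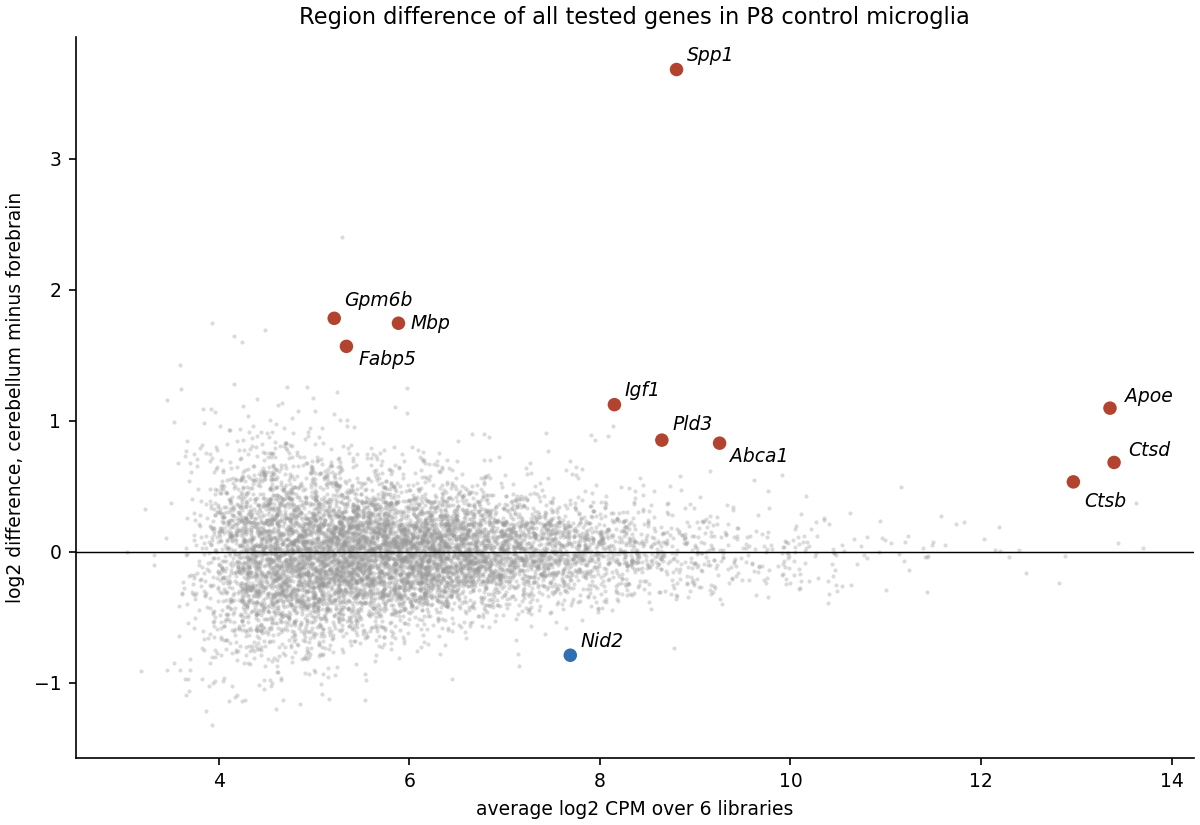
Each point is 1 of 8374 genes, with its average log2 CPM over the 6 libraries on the x axis and its log2 difference, cerebellum minus forebrain, on the y axis. The 10 named genes higher in cerebellum are red and Nid2, the 1 lower gene, is blue; Spp1 stands at 3.68 and the other 9 higher genes lie between 0.53 and 1.78.

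Spp1 differed most. It encodes osteopontin, a secreted phosphoprotein that binds integrins and CD44 and is a defining gene of microglia in early white matter (GRCm38 chromosome 5, 104435118 to 104441050). Spp1 was at 2124, 1140 and 1691 CPM in the cerebellum libraries, against 105, 157 and 112 CPM in the forebrain libraries. The lowest cerebellum library, replicate 2, was 7.28 times the highest forebrain library, replicate 1. The log2 difference was 3.68 ± 0.18 (SE), a fold of 12.8, with an adjusted p of 5.33e-11 by limma.

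The promoters of Spp1 and of Ctsd and Abca1, further genes higher in cerebellum that are described below, are shown because they can be set beside each other for the letters of a PU.1-type ETS site and of the E-box. PU.1 is the transcription factor that macrophages and microglia need, and the E-box is bound by the MiT/TFE factors that drive lysosomal genes, among others. The sequences are the RefSeq promoters of GRCm38.p6, from 250 bases before to 50 bases after the annotated start, on the gene's strand, with GAGGAAGT and CACGTG (either strand) in capitals. The Spp1 promoter lies at chr5:104434861-104435160 on the plus strand, that of Ctsd at chr7:142387778-142388077 on the minus strand and that of Abca1 at chr4:53159846-53160145 on the minus strand.
Spp1: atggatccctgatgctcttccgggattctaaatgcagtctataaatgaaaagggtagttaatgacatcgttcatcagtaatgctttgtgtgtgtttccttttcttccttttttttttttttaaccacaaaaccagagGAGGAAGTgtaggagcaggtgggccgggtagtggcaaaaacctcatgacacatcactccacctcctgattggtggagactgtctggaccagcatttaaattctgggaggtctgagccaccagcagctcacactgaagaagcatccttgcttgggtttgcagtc
Ctsd: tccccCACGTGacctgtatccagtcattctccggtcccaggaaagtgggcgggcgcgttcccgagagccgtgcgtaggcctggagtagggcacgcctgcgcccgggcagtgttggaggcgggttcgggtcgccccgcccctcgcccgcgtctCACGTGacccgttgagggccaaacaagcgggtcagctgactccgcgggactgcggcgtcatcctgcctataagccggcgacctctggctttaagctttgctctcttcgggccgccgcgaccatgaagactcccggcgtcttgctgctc
Abca1: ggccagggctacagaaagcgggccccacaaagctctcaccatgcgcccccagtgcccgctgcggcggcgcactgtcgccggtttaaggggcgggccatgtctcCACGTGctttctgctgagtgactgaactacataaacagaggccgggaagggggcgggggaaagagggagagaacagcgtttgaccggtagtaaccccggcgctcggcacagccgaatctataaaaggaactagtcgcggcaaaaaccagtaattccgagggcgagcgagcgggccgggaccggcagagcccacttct
GAGGAAGT was found once in the Spp1 promoter, and it is present in 3.20% of the 32851 promoters in the table. CACGTG was found 2 times in the Ctsd promoter and once in that of Abca1, and it is present in 7.15% of all promoters. Of the 11 genes that passed the test, 7 have a promoter in the table (10 promoters in all); the E-box letters were in those of Abca1 and Ctsd and the ETS letters in that of Spp1. The words do not overlap each other, and they were chosen after the promoters had been searched. Such a match describes the letters in this window and does not show binding.

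Genes of lysosomal breakdown formed the next group. Ctsd encodes cathepsin D, the main aspartic protease of lysosomes (chromosome 7, 142375911 to 142388038). It was at 14222, 13345 and 13424 CPM in cerebellum, against 8355, 9016 and 8177 CPM in forebrain, with no overlap and little spread within a region. Its log2 difference was 0.68 ± 0.09 (SE; adjusted p = 0.000571, limma). Ctsb, which encodes the cysteine protease cathepsin B (chromosome 14, 63122462 to 63145923), was at 10276, 9148 and 9551 CPM in cerebellum, against 6312, 7182 and 6517 CPM in forebrain. Its log2 difference was 0.53 ± 0.09 (adjusted p = 0.0117). Pld3, a lysosomal member of the phospholipase D family with nuclease activity (chromosome 7, 27532000 to 27553218), was at 529, 534 and 551 CPM in cerebellum and 262, 392 and 255 CPM in forebrain. The log2 difference of Pld3 was 0.85 ± 0.15 (adjusted p = 0.0145), and forebrain replicate 1 was the forebrain library nearest to the cerebellum.

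Over the 41 tested genes of the lysosome list, Ctsd and Ctsb passed the test, against 0.119% of all genes called higher, and none was called lower; 36 had a positive log2 difference and the median was 0.18, against -0.01 over all genes. The libraries of the regions did not overlap for 16 members that were higher in cerebellum and 1 that was lower, against 6.57% and 5.98% of all genes. The lower member was Ctsf, at 408, 418 and 373 CPM in cerebellum and 442, 472 and 482 CPM in forebrain. Ctsl, the cathepsin L gene, lay just outside the threshold (adjusted p = 0.0638), at 2764, 2739 and 2619 CPM in cerebellum and 1755, 2164 and 1871 CPM in forebrain. Gaa, which encodes the acid alpha-glucosidase that breaks down glycogen, averaged 296 ± 9.9 CPM in cerebellum and 207 ± 14.2 CPM in forebrain (SD, n = 3 each; adjusted p = 0.299). The summed level of the list was 72913 to 74766 CPM in cerebellum and 58387 to 63984 CPM in forebrain.

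Genes that carry or export lipid differed in the same direction. Apoe, the main lipid-carrying apolipoprotein of the brain (chromosome 7, 19696109 to 19699188), was at 15492, 16015 and 14450 CPM in cerebellum, against 5713, 10780 and 5944 CPM in forebrain. Forebrain replicate 1 lay well above the other two forebrain libraries and still below every cerebellum library. The log2 difference of Apoe was 1.10 ± 0.16 (SE; adjusted p = 0.00209, limma). Abca1, the pump that loads cholesterol onto apolipoproteins (chromosome 4, 53030787 to 53159895), was at 888, 796 and 761 CPM in cerebellum and 397, 579 and 414 CPM in forebrain. Abca1 differed by 0.83 ± 0.14 on the log2 scale (adjusted p = 0.0104). Fabp5, a carrier of fatty acids inside the cell (chromosome 3, 10012548 to 10016607), was at 78.2, 65.9 and 60.2 CPM in cerebellum and 21.4, 16.9 and 27.1 CPM in forebrain. Fabp5 had a log2 difference of 1.57 ± 0.28 (adjusted p = 0.0145).

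These 3 were the called members among 19 tested genes of lipid uptake and efflux, against 0.119% of all genes called higher, and none was called lower; 17 had a positive log2 difference, with a median of 0.49. Nceh1, an enzyme that frees cholesterol from its esters, was at 114, 91.3 and 83.1 CPM in cerebellum and 42.9, 54.0 and 25.2 CPM in forebrain (adjusted p = 0.0638). Plin2, the coat protein of lipid droplets, was at 407, 259 and 321 CPM in cerebellum and 162, 241 and 134 CPM in forebrain (adjusted p = 0.0815). Both sets of libraries were apart, and neither gene passed the test. The cholesterol synthesis list had no called member among 18, and 14 of them had a negative log2 difference, with a median of -0.25.

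Igf1 encodes a growth factor that acts on neurons and the oligodendrocyte lineage (chromosome 10, 87858265 to 87937042). It was at 485, 483 and 312 CPM in cerebellum, against 153, 202 and 225 CPM in forebrain, so that cerebellum replicate 3 was the nearest to the forebrain. Its log2 difference was 1.12 ± 0.18 (SE; adjusted p = 0.0055, limma). Csf1, the ligand whose floxed allele these mice carry, was at 84.2, 49.7 and 59.0 CPM in cerebellum and 51.0, 32.7 and 32.0 CPM in forebrain. The Csf1 libraries of the regions overlapped, and the gene did not pass (log2 difference 0.71 ± 0.27, adjusted p = 0.608).

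Spp1, Ctsd, Apoe, Igf1, Ctsb, Fabp5 and Pld3 belong to the white-matter and disease-associated list of 40 genes, of which 36 were tested. These 7 were all called higher and none of the list was called lower, against 0.119% of all genes called higher. A further 16 members were higher at an unadjusted p under 0.05, and none was lower. The median log2 difference was 0.60, 33 members were positive, and for 18 of the 36 every cerebellum library lay above every forebrain library, against 6.57% over all genes. The exceptions with a negative difference were Cd52 (-0.35), Ccl4 (-0.24) and Tyrobp (-0.10). Summed over the list, the level was 54209 to 58481 CPM in cerebellum and 31917 to 40904 CPM in forebrain, the highest forebrain value being that of replicate 1.

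Further members of the list, named after their values were seen, also had a positive difference without passing the test. Lyz2, the lysozyme gene, was at 448, 335 and 394 CPM in cerebellum and 209, 285 and 133 CPM in forebrain (adjusted p = 0.0638). The tetraspanin gene Cd9 was at 1395, 1213 and 979 CPM in cerebellum and 747, 929 and 699 CPM in forebrain (adjusted p = 0.117). Of the genes that define the white-matter state, Itgax, an integrin subunit, was at 34.9, 41.6 and 65.0 CPM in cerebellum and 14.3, 24.8 and 19.4 CPM in forebrain (adjusted p = 0.299). Lpl, the lipoprotein lipase gene, was at 901, 746 and 518 CPM in cerebellum and 482, 512 and 388 CPM in forebrain (adjusted p = 0.256). Gpnmb, a glycoprotein of phagocytic cells, spread most: it was at 219, 23.1 and 130 CPM in cerebellum and 36.7, 4.504 and 17.4 CPM in forebrain. Cerebellum replicate 2 fell within the forebrain range there, and Gpnmb did not pass (log2 difference 2.40 ± 0.59, adjusted p = 0.177). Clec7a, the beta-glucan receptor dectin-1, was at 217, 118 and 98.7 CPM in cerebellum and 66.3, 107 and 52.3 CPM in forebrain, with overlap (adjusted p = 0.399).

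**Figure D2:**
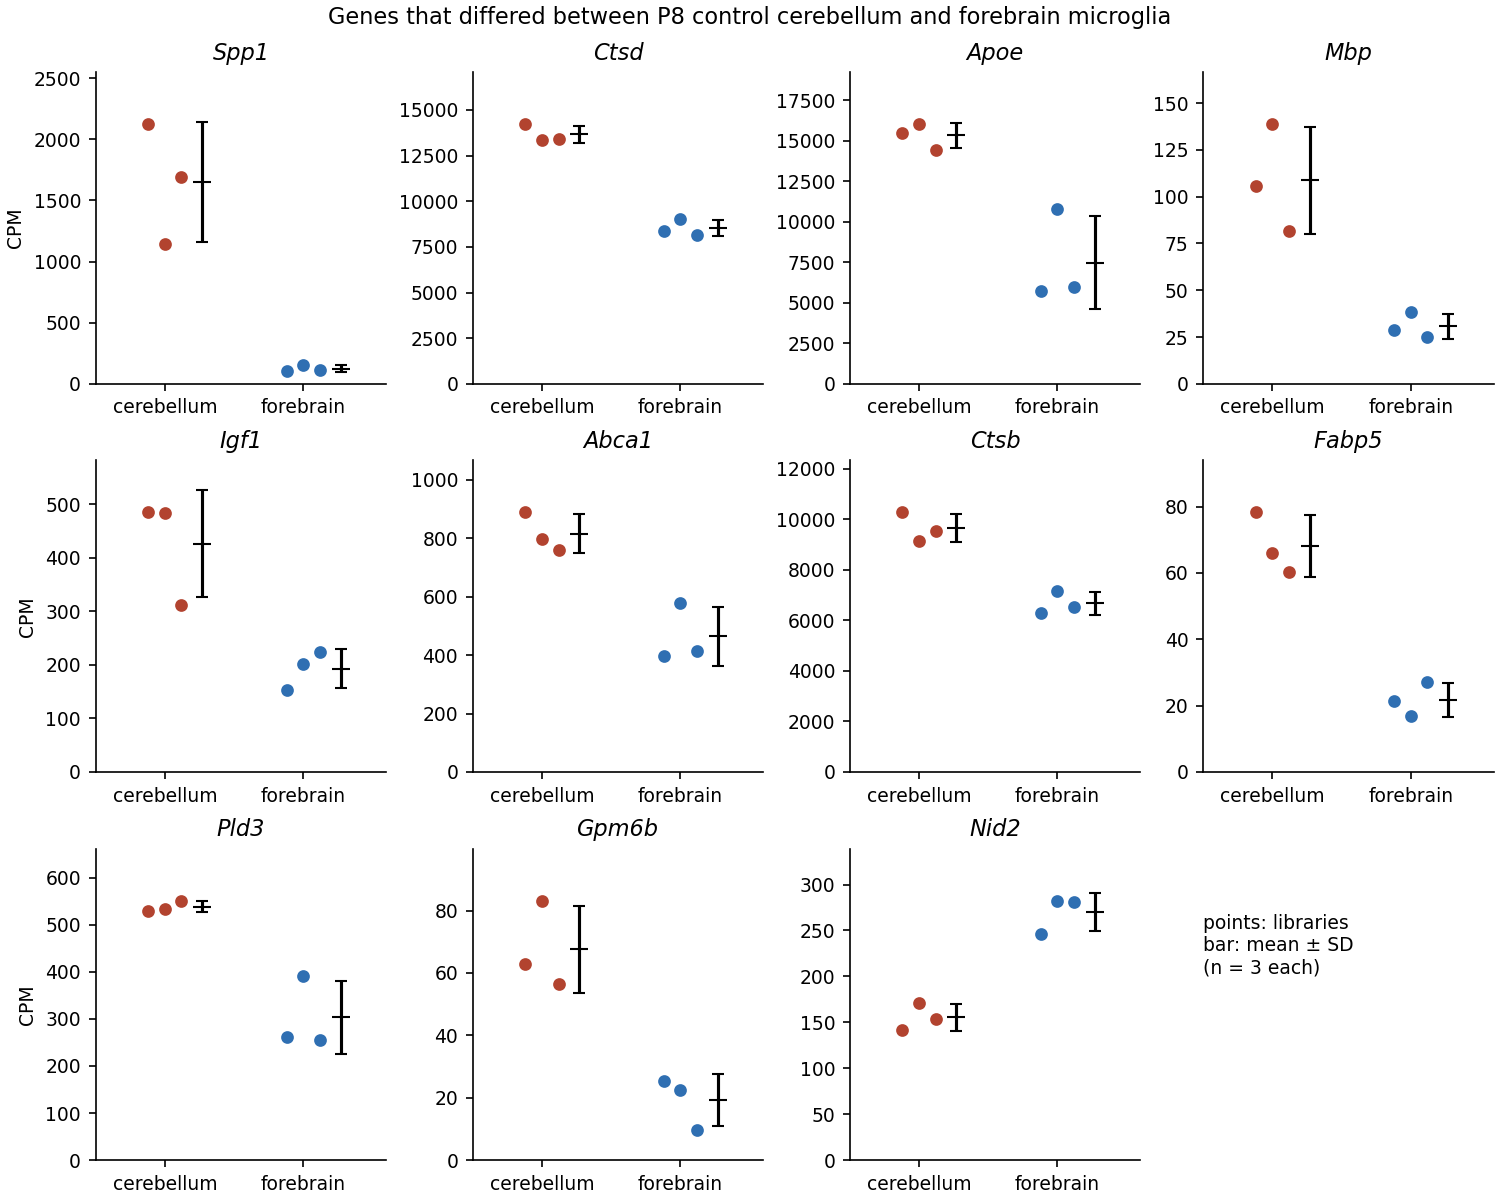
CPM of the 11 genes that passed the test, with 1 point per library and the mean ± SD beside it (n = 3 each), cerebellum in red and forebrain in blue, each axis starting at 0. The regions do not overlap for any of the 11, and forebrain replicate 1, the middle blue point, is the highest forebrain library for Spp1, Ctsd, Apoe, Mbp, Abca1, Ctsb, Pld3 and Nid2.

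Transcripts best known from myelinating glia were also higher. Mbp encodes myelin basic protein. It was at 105, 139 and 81.9 CPM in cerebellum, against 28.6, 38.3 and 25.2 CPM in forebrain, with a log2 difference of 1.75 ± 0.26 (SE; adjusted p = 0.00219, limma). Gpm6b encodes a membrane glycoprotein made by neurons and oligodendrocytes (chromosome X, 166238911 to 166388988). It was at 62.9, 83.2 and 56.6 CPM in cerebellum and 25.5, 22.5 and 9.68 CPM in forebrain (log2 difference 1.78 ± 0.33, adjusted p = 0.0202). Of the oligodendrocyte marker list, 5 of 24 genes were tested and Mbp was the only one called. Cnp, another myelin gene, was at 112, 106 and 80.7 CPM in cerebellum and 95.95, 105 and 124 CPM in forebrain, and Mag at 19.6, 15.03 and 13.2 CPM in cerebellum and 21.4, 9.01 and 11.6 CPM in forebrain. Mog, Mobp and Sox10 were not analysed here. Of the 5 genes, 3 had a positive log2 difference, Mbp among them, and 2 a negative one. Their summed level was 326 to 440 CPM in cerebellum and 290 to 300.2 CPM in forebrain. Mbp itself is in this sum, so the sum is not a measure apart from Mbp. The part of oligodendrocyte RNA in the difference of Mbp and Gpm6b was not tested.

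Nid2 was the 1 gene that was lower in cerebellum. It encodes nidogen 2, a basement membrane protein (chromosome 14, 19751265 to 19811787). Nid2 was at 141, 171 and 154 CPM in cerebellum, against 246, 283 and 281 CPM in forebrain, and fell by 0.79 ± 0.15 on the log2 scale (adjusted p = 0.0326). It was the most fragile call: it held without cerebellum replicate 3 (adjusted p = 0.0355) and was lost without each of the other 5 libraries (adjusted p = 0.0526 to 0.263).

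The calls of Spp1, Ctsd and Mbp held when any single library was left out. Without forebrain replicate 2 and without the unnumbered forebrain library, Apoe had adjusted p-values of 0.085 and 0.0573. Without cerebellum replicate 1, Abca1, Pld3, Gpm6b, Igf1, Ctsb and Fabp5 had adjusted p-values of 0.129 to 0.232. Without the unnumbered forebrain library, those of the same 6 genes were 0.0573 to 0.174. Abca1, Ctsb, Gpm6b and Pld3 were also lost without forebrain replicate 2 (0.172 to 0.233), and Fabp5, Igf1, Gpm6b and Pld3 without cerebellum replicate 2 (0.0518 to 0.16). Left out 1 at a time, the libraries moved the count of calls between 3 (without the unnumbered forebrain library) and 29 (without forebrain replicate 1), and every called gene kept its direction. In 1 fit of all 12 P8 libraries, which also takes the spread of the NesCre libraries, Spp1, Mbp, Abca1, Gpm6b and Pld3 remained called, while the adjusted p was 0.0512 for Ctsd, 0.0836 for Apoe and Nid2, 0.281 for Igf1, 0.36 for Ctsb and 0.438 for Fabp5.

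Genes of cell division lay on the other side of zero without any of them passing the test. Of 37 tested S phase genes, 34 had a negative log2 difference, with a median of -0.36. Of 50 tested G2 and M phase genes, 49 were negative, with a median of -0.33. At an unadjusted p under 0.05 by limma there were 12 and 11 of them, all lower in cerebellum, against 287 lower of all 8374 genes. Rrm2, a subunit of the enzyme that makes deoxynucleotides, was nearest to the threshold, at 107, 127 and 80.7 CPM in cerebellum and 213, 175 and 187 CPM in forebrain (log2 difference -0.87 ± 0.19, adjusted p = 0.0648). Mki67, which encodes the proliferation marker Ki-67, was at 208, 218 and 140 CPM in cerebellum and 283, 226 and 294 CPM in forebrain (adjusted p = 0.559). Mcm3, a subunit of the replicative helicase, was at 258, 193 and 201 CPM in cerebellum and 281, 262 and 304 CPM in forebrain (adjusted p = 0.614). The regions did not overlap for 14 S phase genes and 10 G2 and M phase genes, all lower in cerebellum, against 5.98% over all genes. The summed S phase level was 2305 to 2560 CPM in cerebellum and 2871 to 3262 CPM in forebrain, and that of G2 and M phase 3632 to 4633 CPM in cerebellum and 4778 to 6089 CPM in forebrain. Without cerebellum replicate 3 the G2 and M phase median was -0.16.

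Ribosomal protein genes showed a like shift, also with no call. All but Rps4l of the 74 tested had a negative difference, and the median was -0.30. At an unadjusted p under 0.05 by limma, 28 were lower, against 287 of all 8374 genes. The regions did not overlap for 18 members, all lower in cerebellum, against 5.98% over all genes. Rps4x, of the small subunit, was at 1277, 1216 and 1383 CPM in cerebellum and 1524, 1737 and 1513 CPM in forebrain (log2 difference -0.30 ± 0.11, adjusted p = 0.575). Forebrain replicate 1 had the highest summed level, 36811 CPM; the other 2 forebrain libraries had 31591 and 27170 CPM and the cerebellum libraries 24622 to 27024 CPM. Without forebrain replicate 1 the median was -0.16.

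The homeostatic genes did not share a direction, with 17 positive and 19 negative log2 differences. None of the 36 was called and the median was -0.02. At an unadjusted p under 0.05 by limma, 4 were higher and 5 lower, against 348 and 287 of all 8374 genes. The libraries of the regions did not overlap for 3 higher and 6 lower members, against 6.57% and 5.98% of all genes. Among the lower were Siglech, a sialic acid-binding receptor, at 1105, 1293 and 1231 CPM in cerebellum and 1584, 1395 and 1560 CPM in forebrain (adjusted p = 0.553), and the fructose transporter gene Slc2a5, at 216, 253 and 228 CPM in cerebellum and 284, 290 and 336 CPM in forebrain (adjusted p = 0.582). Mertk, a receptor for the uptake of apoptotic cells, was at 460, 470 and 500 CPM in cerebellum and 381, 355 and 367 CPM in forebrain (adjusted p = 0.548). The purinergic receptor gene P2ry12 averaged 5414 ± 856 CPM in cerebellum and 6034 ± 662 CPM in forebrain (SD, n = 3 each; adjusted p = 0.793). C1qb, which encodes a chain of the complement component C1q, had a log2 difference of 0.01 ± 0.10 (adjusted p = 0.987).

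**Figure D3:**
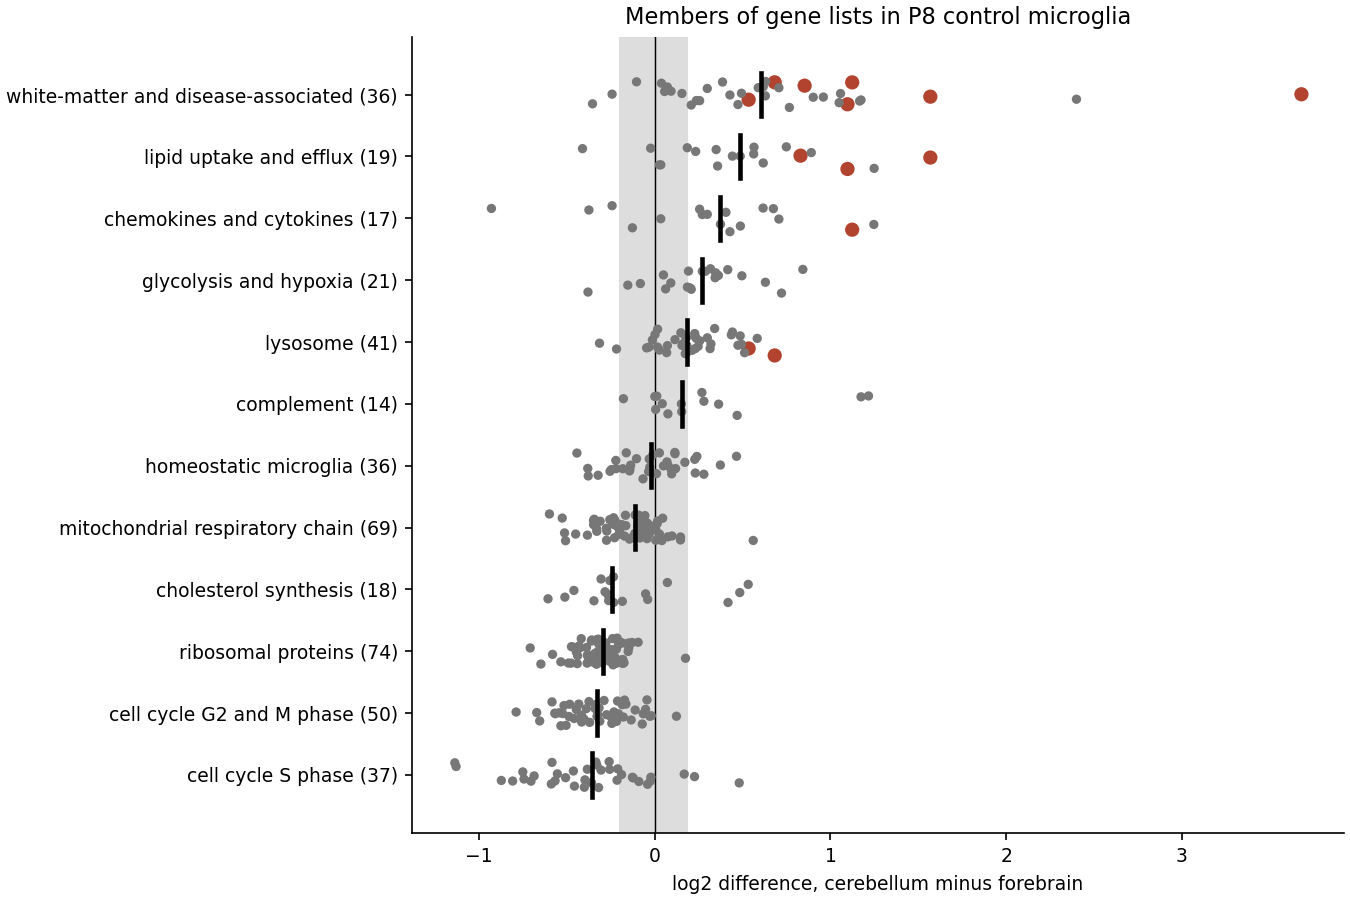
Log2 differences, cerebellum minus forebrain, of the tested members of 12 gene lists, with the number tested in brackets; red points passed the test, black bars are medians and the grey band is the interquartile range of all genes tested (-0.20 to 0.19). The white-matter list has its median at 0.60 and the S phase list at -0.36.

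In the other 12 microglial lists that were tested, the only call was Igf1, which the chemokine and cytokine list also holds (17 tested, median 0.37). The medians of the other 11 ran from -0.11 for the mitochondrial respiratory chain (69 tested) to 0.27 for glycolysis and hypoxia (21 tested). The medians were 0.15 for complement and for CSF1R signalling, 0.18 for antigen presentation, 0.16 for interferon-stimulated genes and 0.10 for phagocytosis receptors. They were 0.11 for TGF-beta signalling and for potassium channels and purine receptors, 0.09 for adhesion and matrix, and 0.04 for immediate early and heat shock genes.

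Markers of cells other than microglia were measured beside these groups. Of the border-associated macrophage list, 20 of 24 genes were tested and none was called. At an unadjusted p under 0.05 by limma, 8 were higher and 1 lower, against 348 and 287 of all 8374 genes. In the lysosome list, 15 of 41 were higher at that level. The median was 0.36, against 0.18 for the lysosome list and -0.01 over all genes. The summed level of the list was 3844 to 6030 CPM in cerebellum and 4111 to 4957 CPM in forebrain. Of the 20 members, 14 had a positive and 6 a negative log2 difference. Lyve1, which marks perivascular and meningeal macrophages, was at 299, 274 and 159 CPM in cerebellum and 67.4, 221 and 128 CPM in forebrain (adjusted p = 0.486). Mrc1 had a negative difference of -0.17 ± 0.16 (SE; adjusted p = 0.859). It was at 1295, 1150 and 746 CPM in cerebellum and 1268, 1001 and 1243 CPM in forebrain. Cerebellum replicate 3 had the lowest summed level of all 6 libraries, and its Lyve1 level lay within the forebrain range. The endothelial gene Cldn5 stood apart in 2 libraries, at 112, 13.9 and 305 CPM in cerebellum and 73.5, 176 and 67.8 CPM in forebrain, and cerebellum replicate 3 was also the richest in neutrophil genes. The part of these cells in the differences was not tested. Leaving out cerebellum replicate 3 and forebrain replicate 1 together, an alternative chosen after seeing the data, left all 10 higher genes called. Nid2 then had an adjusted p of 0.0529 by limma. Over all genes the calls rose from 11 to 62 (43 higher and 19 lower). Of the 43, 15 came from the white-matter list of 40 genes. That list was chosen with earlier results of these data known, so the 15 are not separate evidence.

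The remaining marker lists had few tested members and no call: 4 of monocytes and neutrophils (summed 422 to 634 CPM in cerebellum and 423 to 446 CPM in forebrain), 5 of endothelium and pericytes (433 to 860 CPM in cerebellum and 485 to 848 CPM in forebrain) and 9 of astrocytes and radial glia (532 to 635 CPM in cerebellum and 440 to 562 CPM in forebrain). Of the neuronal lists, 2 genes of neurons of any region, 3 of cerebellar and 2 of forebrain neurons and glia were tested; 1 lymphocyte gene and 1 choroid plexus gene were tested and no red cell gene was.

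**Figure D4:**
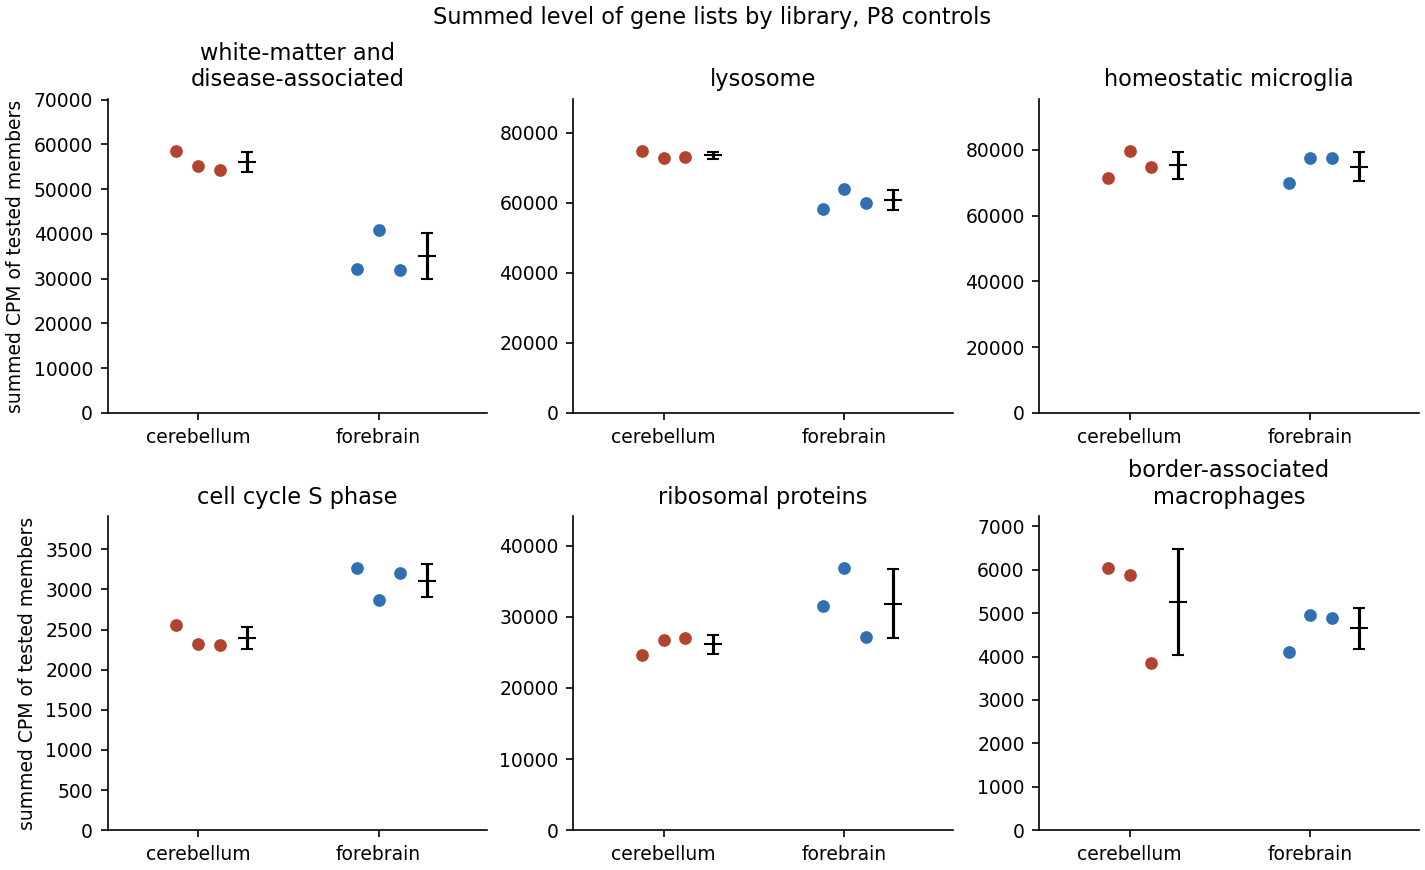
Summed CPM of the tested members of 6 gene lists, with 1 point per library and the mean ± SD beside it (n = 3 each), cerebellum in red and forebrain in blue. The regions do not overlap for the white-matter, lysosome, S phase and ribosomal lists (24622 to 27024 CPM in cerebellum and 27170 to 36811 CPM in forebrain for the ribosomal genes), and they overlap for the homeostatic and border-associated macrophage lists.

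The same regions were compared in NesCre mice, in 6 libraries that the control comparison did not use. All 11 genes had the same sign there, and 1, Mbp, was called. The fit also held the P8 control libraries, whose spread enters its p-values. Over its 8400 genes, 13 were called in NesCre mice (0.155%), 12 higher (0.143%) and 1 lower (0.0119%). In the same fit the control difference gave 5 calls, all higher. Mbp was at 55.8, 123 and 226 CPM in NesCre cerebellum and 25.4, 30.1 and 36.6 CPM in NesCre forebrain (log2 difference 1.86 ± 0.34, adjusted p = 0.0193). Apoe was at 11694, 11416 and 11553 CPM in NesCre cerebellum and 9614, 7387 and 3628 CPM in NesCre forebrain (log2 difference 0.86 ± 0.24, adjusted p = 0.168). Igf1 was at 225, 294 and 249 CPM in NesCre cerebellum and 158, 183 and 49.98 CPM in NesCre forebrain (log2 difference 1.15 ± 0.29, adjusted p = 0.142). Lyz2, just outside the threshold in controls, was among the 12 called higher in NesCre mice, along with Cfp, F13a1, Cd36 and Pf4. These genes were named after their values were seen. F13a1, Cd36 and Pf4 belong to the border-associated macrophage list. Of its 20 tested genes, 4 were called higher in NesCre mice, against 0.143% of all genes, with a median of 0.78. The white-matter list had 1 gene called higher among 36 and a median of 0.33. The part of border-associated macrophages in these calls was not tested.

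The Spp1 libraries of the regions overlapped in NesCre mice. The gene was at 320, 423 and 79.8 CPM in NesCre cerebellum and 338, 436 and 23.2 CPM in NesCre forebrain, with a wide spread in both regions, and the log2 difference was 0.52 ± 0.63. The difference between the genotypes, NesCre minus control, was -3.16 ± 0.88 on the log2 scale, with an unadjusted p of 0.00142 and an adjusted p of 0.996. For Ctsd the same difference was -0.44 ± 0.20, for Gpm6b -1.27 ± 0.46 and for Igf1 0.02 ± 0.42. No gene passed this test by limma over 8400 genes (0% called), where 386 had an unadjusted p under 0.05. The smallest p-values in each direction belonged to Itsn2 (1.25 ± 0.32), Skp2 (1.65 ± 0.44) and Rnf187 (2.13 ± 0.57), whose region difference was more positive in NesCre mice, and to Jam2 (-1.51 ± 0.40), Fmr1 (-1.36 ± 0.37) and Spp1, where it was more negative.

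The region difference at P8 was also set against that at 9 weeks, in controls of the same genotype. The fit held the 7974 genes present in all 4 tables, and of the 11 genes called at P8 it covers 7; Spp1, Igf1, Fabp5 and Gpm6b were not analysed in it. It also held the P8 control libraries. At 9 weeks, 85 genes were called (1.07%), 39 higher in cerebellum (0.489%) and 46 lower (0.577%). For 20 genes (0.251%) the region difference itself differed between the ages, being more positive at P8 for 15 (0.188%) and more negative for 5 (0.0627%). Age and any step that differed between the age groups cannot be told apart.

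Of the 7 genes called at P8 that this fit covers, Ctsd, Abca1, Mbp and Pld3 differed with age. Apoe, Ctsb and Nid2 did not pass that test, and these 3 had the same direction at 9 weeks as at P8. Of the 3, only Apoe was called at 9 weeks. Ctsd was at 14243, 13302 and 13438 CPM in P8 cerebellum and 8333, 8989 and 8202 CPM in P8 forebrain. At 9 weeks it was at 15048, 12845 and 13320 CPM in cerebellum and 16360, 16955 and 18002 CPM in forebrain, so that it was the forebrain that stood higher in the adult. The difference of the log2 differences, P8 minus 9 weeks, was 1.00 ± 0.13 (adjusted p = 0.000371, limma). Abca1 had a region difference of 0.83 ± 0.15 at P8 and -0.46 ± 0.15 at 9 weeks (age difference 1.29, adjusted p = 0.0027). Mbp differed by 1.76 ± 0.27 at P8 and -0.25 ± 0.27 at 9 weeks (adjusted p = 0.0147), and Pld3 by 0.86 ± 0.15 at P8 and -0.14 ± 0.15 at 9 weeks (adjusted p = 0.0449). The age calls of Ctsd and Abca1 held without any single P8 library. That of Pld3 held without forebrain replicate 1 and was lost without each of the other 5 (adjusted p = 0.0955 to 0.152), with upper quartile factors (0.0533) and with a block on the replicate number (0.0612). Apoe was at 1227, 2757 and 1740 CPM in cerebellum at 9 weeks and 707, 895 and 873 CPM in forebrain, a region difference of 1.14 ± 0.21 (adjusted p = 0.00276), against 1.10 ± 0.21 at P8. The age difference of Apoe was -0.04 ± 0.29.

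Lag3, Abcg1, Scd2 and Slc40a1, 4 genes named for the size of their age difference, were called lower in cerebellum at 9 weeks. Their positive differences at P8 did not pass the test there (adjusted p = 0.0638, 0.117, 0.256 and 0.486, in that order). The 4 are not a count over all 20 genes with an age call. Lag3, an immune checkpoint receptor, was at 323, 407 and 380 CPM in P8 cerebellum and 149, 284 and 185 CPM in P8 forebrain. At 9 weeks it was at 274, 242 and 275 CPM in cerebellum and 720.5, 658 and 688 CPM in forebrain. Lag3 had the largest age difference among the called genes, 2.27 ± 0.24 (adjusted p = 8.27e-06). Among these 4 genes Abcg1, a second cholesterol exporter, and Scd2, a fatty acid desaturase, came next, with 1.71 ± 0.25 (adjusted p = 0.000667) and 1.70 ± 0.24 (adjusted p = 0.000521). Slc40a1, the iron exporter ferroportin, had an age difference of 1.33 ± 0.26 (adjusted p = 0.0223). Of the 20 genes, 12 had a positive region difference at P8 and a negative one at 9 weeks.

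The 5 genes with a more negative difference at P8 were apart by region at 9 weeks. Axl, a receptor for apoptotic cells, was at 102, 81.8 and 77.1 CPM in P8 cerebellum and 56.0, 86.4 and 58.3 CPM in P8 forebrain. At 9 weeks it was at 88.4, 125 and 76.9 CPM in cerebellum and 16.2, 24.5 and 11.9 CPM in forebrain. The age difference of Axl was -1.99 ± 0.37 (adjusted p = 0.0147). It was -2.06 ± 0.40 for the membrane protein gene Emp3, -1.68 ± 0.28 for the actin-binding protein gene Lsp1, -1.26 ± 0.26 for the immediate early gene Egr1 and -1.17 ± 0.24 for the NF-kappa-B inhibitor gene Nfkbia. Without single P8 libraries the calls of Lag3, Abcg1, Scd2 and Lsp1 held. Those of Mbp, Slc40a1, Emp3, Axl, Egr1 and Nfkbia were each lost without at least 1 of them, for instance at adjusted p-values of 0.0681 to 0.0828 without cerebellum replicate 2.

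**Figure D5:**
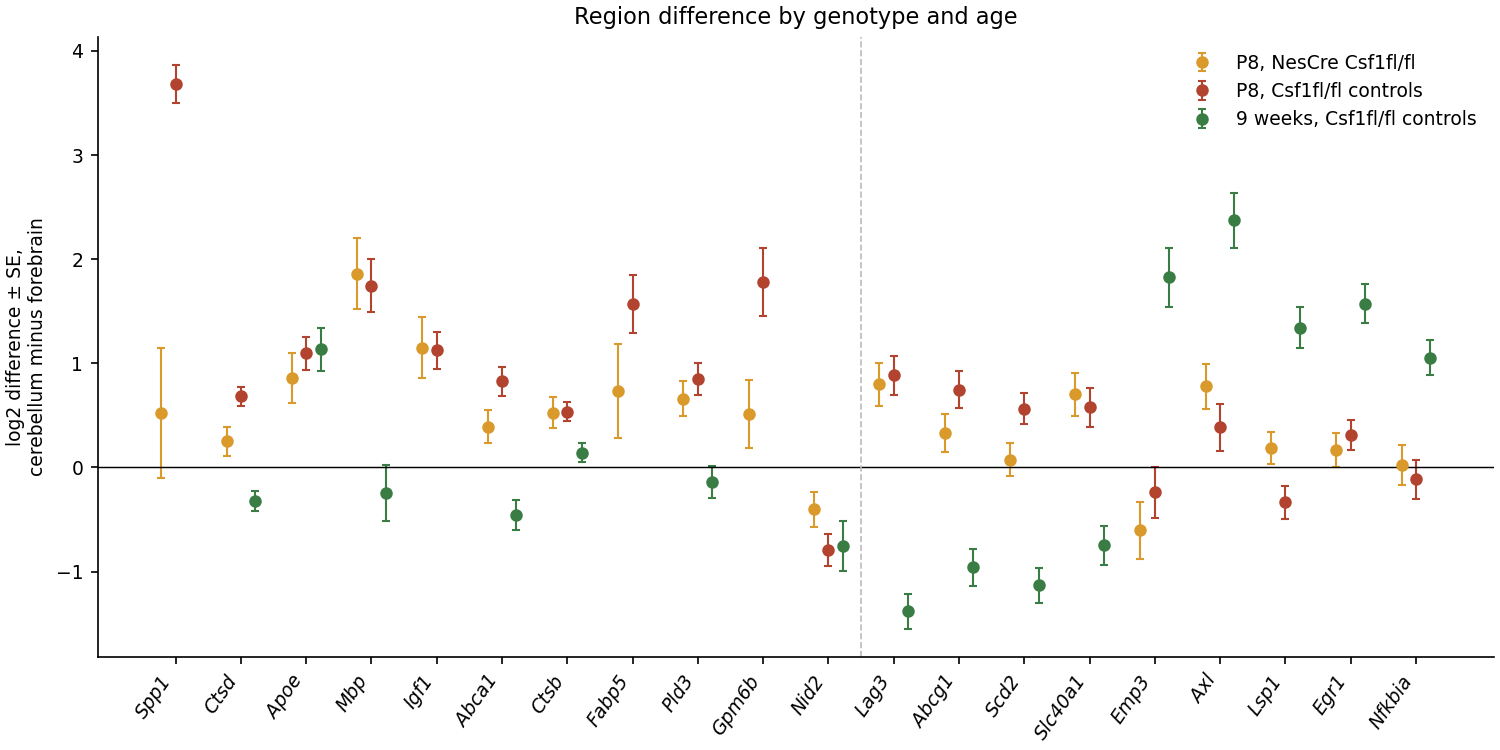
Log2 difference ± SE, cerebellum minus forebrain, for the 11 genes called in P8 controls (left of the dashed line) and the other genes named for a difference with age (right), in P8 NesCre mice (orange), P8 controls (red) and 9-week controls (green); no point is drawn where a gene was not tested. Spp1 stands at 0.52 in NesCre mice and 3.68 in controls, and Lag3 at 0.88 at P8 and -1.38 at 9 weeks in controls.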

How the data were processed

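RNA of sorted primary microglia was sequenced with Nextera XT libraries on a NextSeq 500, per the labels' protocols. STAR 2.5.3, featureCounts and the build mm10 are named in the submitters' processing notes. What annotation release, strand setting and normalization were used is not given in the sources used here. As deposited, the authors' values are a normalized signal per gene, in 1 table per region and age. In the 25 columns of the Csf1 tables all values were whole reads divided by 1 factor per library, plus 0.1 (100% whole within 0.01 reads), and these reads were used here. Gene names turned into dates (15 in the P8 cerebellum table, 16 in the P8 forebrain table) were left out. Among the 9596 genes of the P8 forebrain, 1113 are not above 10 in all libraries of a group, unlike in the other 3 tables.

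Reads of genes in both P8 tables were scaled jointly with TMM factors and tested with limma-trend (limma 3.58.1, R 4.3.3) on log2 CPM with a prior count of 2. Genes needed 10 reads at the median depth in 3 libraries and 15 in all. Each fit held only the groups compared, and two-sided p-values were adjusted by Benjamini-Hochberg over every gene tested, with a threshold of 0.05. edgeR, which the design named for counts, was not used, because the deposited values are a normalized signal and the recovery of reads rests on subtracting the constant. Log2 differences understate the change of low genes. The fit was tested on simulated data with a dispersion of 0.05 and 50 genes per changed fold. It recovered 100% of 4-fold, 42% of 2-fold, 26% of 0.5-fold and 6% of 1.5-fold changes. Of the calls in the simulated data, 6.45% were unchanged genes.

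The members and the 31 gene lists were chosen with earlier results of these data known. Named genes are at most 10 calls per direction whose libraries do not overlap and whose mean log2 CPM reaches 4, up to 4 called or 3 highest members per list and up to 5 per direction for each difference between effects; other list members were named after their values were seen. The main test did not pair the regions by replicate number. The correlation of deviations from the group means was -0.02 for number 1 and 0.03 for number 2. Over all pairs of a cerebellum and a forebrain library it ran from -0.11 to 0.09. With 3 libraries per region these values cannot show whether same-numbered libraries shared animals. Gene positions are from GENCODE vM21 (GRCm38), in which 95.9% of the tested symbols were found.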

Additional observations from a re-analysis of the deposited data

Results flagged for a closer look

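The region difference, cerebellum minus forebrain, differed between P8 and 9 weeks by the limma test of the difference for 20 genes. The 13 given here were named for the size of that difference or were called at P8. P2ry12, Slc2a5 and Jam2, named above for other reasons, were also among the 20, and their age calls were lost without cerebellum replicate 2. The log2 difference at P8 minus that at 9 weeks was 2.27 for Lag3, 2.01 for Mbp, 1.7 for Scd2, 1.71 for Abcg1, 1.33 for Slc40a1, 1.29 for Abca1, 1.0 for Ctsd and 0.99 for Pld3. It was -2.06 for Emp3, -1.99 for Axl, -1.68 for Lsp1, -1.26 for Egr1 and -1.17 for Nfkbia. Scd2 was at 447, 447 and 356 CPM in P8 cerebellum and 243, 269 and 333 CPM in P8 forebrain; at 9 weeks it was at 37.7, 41.6 and 41.0 CPM in cerebellum and 101, 80.5 and 89.2 CPM in forebrain. Egr1 was at 353, 445 and 375 CPM in P8 cerebellum and 357, 302 and 285 CPM in P8 forebrain; at 9 weeks it was at 1245, 1667 and 1031 CPM in cerebellum and 322, 629 and 398 CPM in forebrain.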

How the results depend on the processing

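The count of region differences in P8 controls (11) stayed at 11, the same genes, with median-ratio or upper quartile factors, without a filter, with a filter of 20 CPM, with a prior count of 0.1, and with genes above 10 in all controls of a region. It was 22 with voom and quality weights (20 higher, 2 lower) and 5 in 1 fit of the 12 P8 libraries, and 62 without cerebellum replicate 3 and forebrain replicate 1 together, which was chosen after seeing the data. Leaving out 1 library at a time gave 3 to 29 calls, and 7 to 21 for the difference with age (20). The difference with genotype gave 0 calls in every such omission. A block on the replicate number, which drops the unnumbered forebrain library and cerebellum replicate 3, gave 38 calls for the region difference (28 higher, 10 lower), 3 for the difference with genotype and 52 for that with age. The cause of these moves was not tested. No named gene that passed in any setting changed its direction. edgeR and DESeq2, listed among the alternatives, were not run. With 3 libraries per region and 833871 to 1200940 reads each, a p that misses the threshold does not show that a gene did not differ.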

Other observations

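Genes present in only 1 of the P8 tables could not be compared between regions, and are given as the authors' normalized values. The 124 genes in the cerebellum table only were led by neutrophil granule genes, all highest in replicate 3. Ngp was at 54.3, 67.6 and 415 in replicates 1, 2 and 3, Ltf at 75.01, 35.8 and 291, S100a9 at 28.6, 30.9 and 222, and S100a8 at 18.6, 32.9 and 126. Anxa1, which encodes a phospholipid-binding protein abundant in neutrophils, was at 24.4, 24.2 and 116. The 1196 genes in the forebrain table only were led by Ptgds, a prostaglandin D synthase of meningeal and choroid plexus cells, at 5.96, 769 and 13.7 in the unnumbered library and replicates 1 and 2. Itm2a, an endothelial marker in the brain, was at 21.0, 106 and 40.2, and the basement membrane collagen gene Col4a1 at 12.7, 54.2 and 44.2. Ptrf, which encodes a protein of caveolae, was at 13.5, 62.8 and 29.8, and Stag3, a cohesin subunit gene, at 51.2, 34.3 and 47.4.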
